A study of Homo sapiens with 12 samples.

Results

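The genes described here are 10 death-promoting members of the BCL2 family: the pore-forming effectors BAX, BAK1 and BOK, and the BH3-only proteins BID, BCL2L11 (BIM), BBC3 (PUMA), PMAIP1 (NOXA), BAD, BIK and BMF. HRK, another BH3-only gene, is not among them, and its probe was detected on 1 of 12 arrays. They were chosen by gene symbol, as all probes annotated to a fixed list of names, and they make up 10 of 20045 genes and 22 of 30111 probes with 1 symbol. Of these probes, 12 were detected (detection p under 0.01) on all 12 arrays and 2, both of BMF, on 0. A probe detected on at least 3 arrays of a comparison was tested in it, which kept 19 probes and all 10 genes in comparisons between the lines, 10 genes in OE21 and 9 in OE33.

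BCL2 family proteins decide whether the outer mitochondrial membrane stays intact. Activated BAX and BAK1 form pores that release cytochrome c, pro-survival members such as BCL2, BCL2L1 (BCL-XL) and MCL1 hold them in check, and BH3-only proteins tip the balance by binding either side. STAT3 is known mainly for inducing pro-survival members of the family in tumours. Much of the family's control lies in protein cleavage, phosphorylation and turnover, which RNA levels do not show.

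RNA was measured on Illumina BeadChips in a squamous esophageal cancer line, OE21, and in a line from a Barrett's adenocarcinoma, OE33. Each line received, in 2 transfections, a pool of 4 siRNA sequences against STAT3 at 100 nM or a negative control siRNA, and was harvested 72 h after the earlier one. This gives 4 groups of 3 arrays, which the design text calls independent experiments: OE21 control, OE21 STAT3 siRNA, OE33 control and OE33 STAT3 siRNA. The reagent was siPORT NeoFX for OE21 and DharmaFECT for OE33, and so line and reagent cannot be told apart, and every group, controls included, was transfected.

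Between 18034 and 19149 probes per array were detected. Of the squamous markers KRT5, KRT14, DSG3 and S100A2, all 4 were detected on every OE21 array, and the first 3 on 0 OE33 arrays. KRT8, CDX2, KRT18 and AGR2 were detected on every OE33 array, while KRT20, CDX1 and TFF3 were detected on 0 and TFF1 on 1 control array. KRT18 and AGR2 were also detected on every OE21 array, where the 6 other columnar markers were detected on 0. The summed intensity of the columnar list was 301.1 to 387.3 in OE21 and 5461 to 7225 in OE33, and that of the squamous list was 9974 to 20520 and 189.3 to 298.0. PTPRC, CD3E, COL3A1 and PECAM1, markers of blood, stromal and endothelial cells, were detected on 0 arrays of either line, COL1A1 on 3 OE21 arrays and 1 OE33 array, and ACTA2 on all 12. For these 6 the sum was 328.1 to 440.2 in OE21 and 240.0 to 276.2 in OE33, and its part in any result was not tested. STAT3 itself lay at 9.23, 8.90 and 9.24 log2 units on the OE21 control arrays and at 6.76, 6.77 and 7.47 after the siRNA, without overlap (log2 difference -2.12, SE 0.23, limma adjusted p = 0.278). In OE33 it lay at 9.04, 10.26 and 9.36 against 9.10, 8.87 and 9.05, with overlapping groups (-0.55, SE 0.30, limma adjusted p = 0.991). These values are of the brightest STAT3 probe. In OE33 all 3 STAT3 probes were below 0, at -0.55 to -0.28, and 0 of 3 passed. The groups of 1 of them, ILMN_2410986, did not overlap, at 7.59, 7.90 and 7.54 in control cells and 7.15, 7.21 and 7.04 after the siRNA. In OE21 the 3 probes lay at -2.12 to -2.00, and 1 of 3 passed when adjusted over all probes. Among the OE33 arrays control 2 stood apart, at 0.90 on the first principal component against -0.26 to -0.02 for the other 5.

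Promoter windows are shown for the members that hold a searched motif, which are BAX, BID, BBC3 and BCL2L11. RefSeq windows of 250 bases before a start site (GRCh38.p14) were found for 9 of the 10 genes, 15 windows in all. The motifs searched were TTCNNNGAA, the palindrome of STAT factors, CACGTG, the E-box palindrome of MYC and related factors, and GTAAACA, a forkhead (FOXO) motif read on both strands. The STAT palindrome was in 0 of the 15 windows and in 6.57% of 35116 windows of all genes. The E-box was in 4 windows of BAX, BID and BBC3, and in 6.34% of all windows. The BID windows that hold it overlap and share the same site, which is thus counted in each of them. The FOXO motif was in the window of BCL2L11, and in 2.98% of all. Capitals mark the matches in the lines below, the E-box in BAX, BID and BBC3 and the FOXO motif in BCL2L11.
BAX, chr19:48954625-48954874, plus strand: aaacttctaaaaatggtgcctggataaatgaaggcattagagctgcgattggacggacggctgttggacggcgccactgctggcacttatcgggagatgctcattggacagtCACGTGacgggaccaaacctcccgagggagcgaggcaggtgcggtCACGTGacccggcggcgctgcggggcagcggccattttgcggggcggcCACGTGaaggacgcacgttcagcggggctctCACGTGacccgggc
BID, chr22:17774043-17774292, minus strand: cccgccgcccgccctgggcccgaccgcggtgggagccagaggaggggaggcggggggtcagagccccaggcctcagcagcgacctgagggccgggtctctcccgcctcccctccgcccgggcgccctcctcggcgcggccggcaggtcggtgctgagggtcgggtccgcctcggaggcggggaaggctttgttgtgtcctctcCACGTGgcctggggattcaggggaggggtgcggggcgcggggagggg
BBC3, chr19:47232668-47232917, minus strand: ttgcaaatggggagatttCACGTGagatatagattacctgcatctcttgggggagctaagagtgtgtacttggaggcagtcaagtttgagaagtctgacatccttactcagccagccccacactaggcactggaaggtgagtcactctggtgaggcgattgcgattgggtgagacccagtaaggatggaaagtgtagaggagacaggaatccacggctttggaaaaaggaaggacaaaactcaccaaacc
BCL2L11, chr2:111120664-111120913, plus strand: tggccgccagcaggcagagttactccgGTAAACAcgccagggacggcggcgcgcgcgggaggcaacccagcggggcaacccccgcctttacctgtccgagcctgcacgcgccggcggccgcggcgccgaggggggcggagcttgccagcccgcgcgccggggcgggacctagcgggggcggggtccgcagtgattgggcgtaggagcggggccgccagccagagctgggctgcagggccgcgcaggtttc
The BAX window holds 4 E-boxes and each of the others 1 match. A match describes the letters only.

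**Figure D1:**
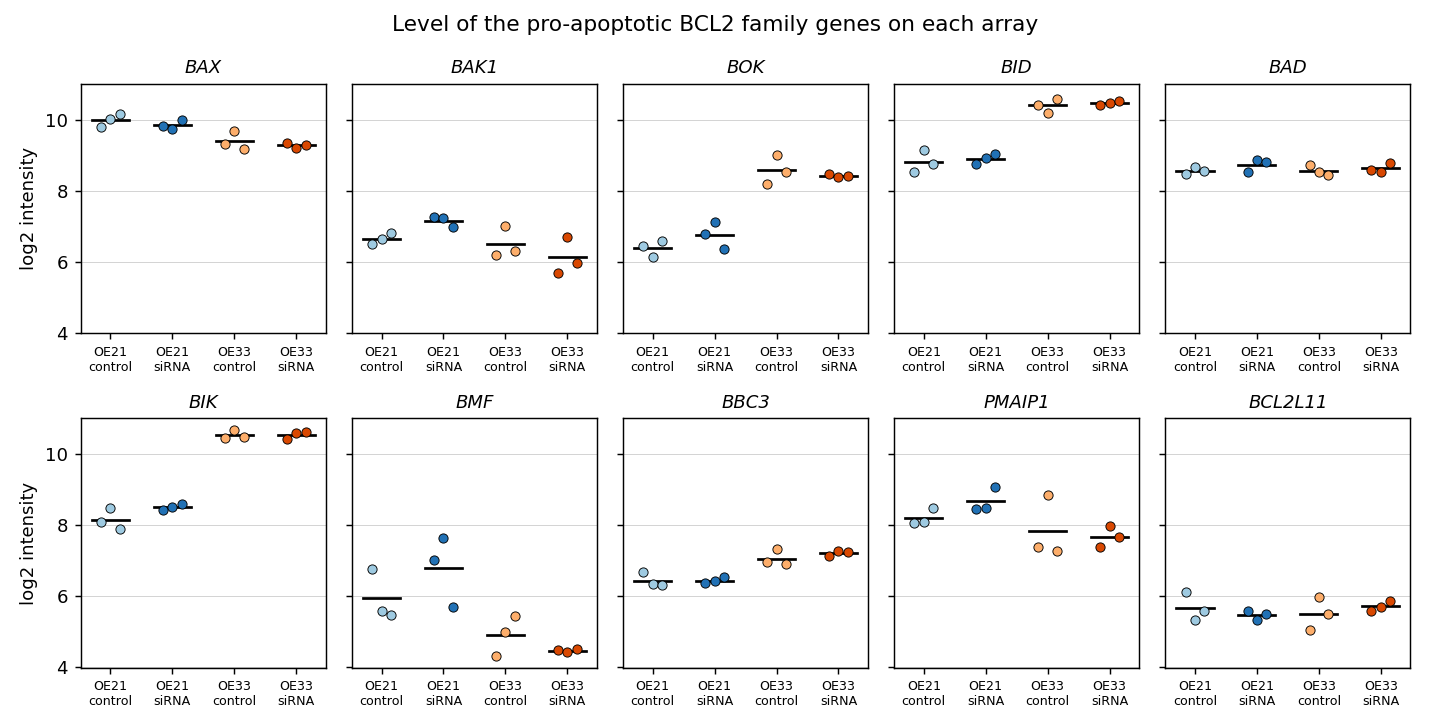
Background-corrected, quantile-normalised log2 intensity (vertical axis) of the probe that stands for each of the 10 genes, by group (horizontal axis). Points are single arrays and bars the means of 3 arrays. BIK, BOK and BID lie higher on every OE33 array than on every OE21 array, and BMF is spread widely within the OE21 groups. Heights of different genes come from different probes and are not compared.

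The clearest pattern among these genes was the difference between the lines. In control cells 4 of the 10 were called higher in OE33 (BIK, BOK, BID and BBC3) and 1 was called lower (BAX), while 5 did not pass. A gene is called when the adjusted p of the limma fit over 12322 genes is under 0.05. Of all genes, 25% were called higher and 24.2% lower in OE33, 49.2% in all, so 5 of 10 is close to the background share and says nothing particular about the family. The STAT3 siRNA arrays hold the same contrast in 6 other arrays. There the same 4 genes were called higher, and BAX, BAK1, BMF and PMAIP1 lower, against 25.6% and 25.2% of all genes (50.8% together). In bulk RNA, fewer cells with a transcript and less of it per cell cannot be told apart.

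**Figure D2:**
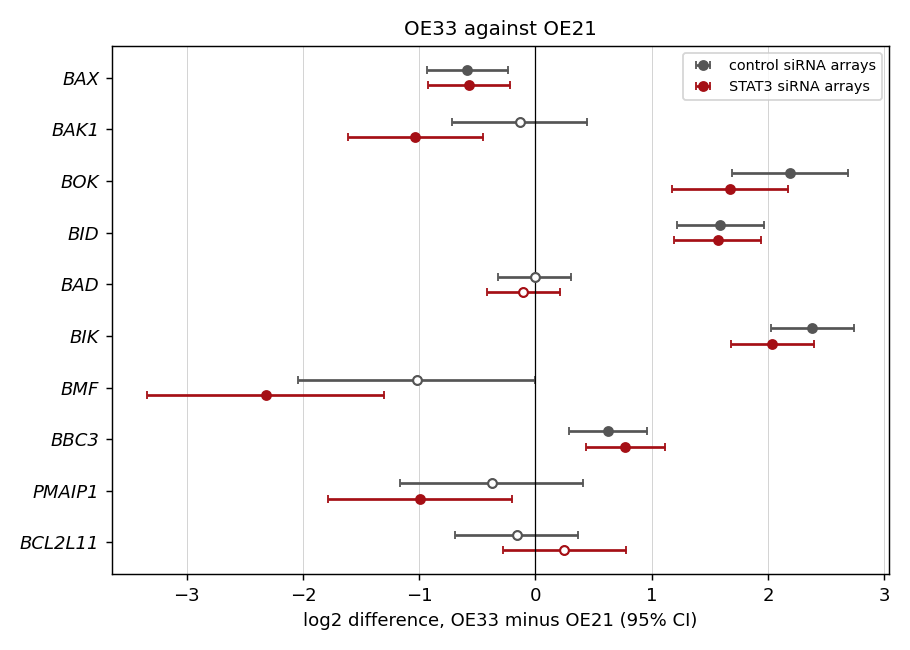
Log2 difference of OE33 minus OE21 (horizontal axis) for the 10 genes, on the control siRNA arrays (grey) and the STAT3 siRNA arrays (red). Bars are 95% confidence intervals of the limma fit, with filled points for adjusted p under 0.05. BIK, BOK, BID and BBC3 lie right of 0 and BAX left of 0 in both sets of arrays.

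BAX, the effector that moves from the cytosol to mitochondria in dying cells, lay at 9.79, 10.01 and 10.16 in OE21 control cells and at 9.33, 9.69 and 9.19 in OE33 control cells. The lines did not overlap, and the log2 difference was -0.58 (SE 0.16, limma adjusted p = 0.00962). On the STAT3 siRNA arrays it was -0.57 (SE 0.16, limma adjusted p = 0.0104). This holds for the brightest BAX probe, ILMN_2321064. ILMN_1683300, which the platform annotation assigns to another BAX transcript, went the other way. It read 5.46, 5.89 and 6.18 in OE21 control cells and 6.38, 7.47 and 6.60 in OE33 control cells, a log2 difference of 0.97 (SE 0.28, limma adjusted p = 0.0139 over all probes tested). On the siRNA arrays that probe gave 1.12 (SE 0.28, limma adjusted p = 0.00591). The mean of the BAX probes differed by 0.06 between the lines in control cells, so no direction can be given for BAX RNA as a whole. ILMN_2258383, the remaining BAX probe, was detected on 3 of 12 arrays.

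**Figure D3:**
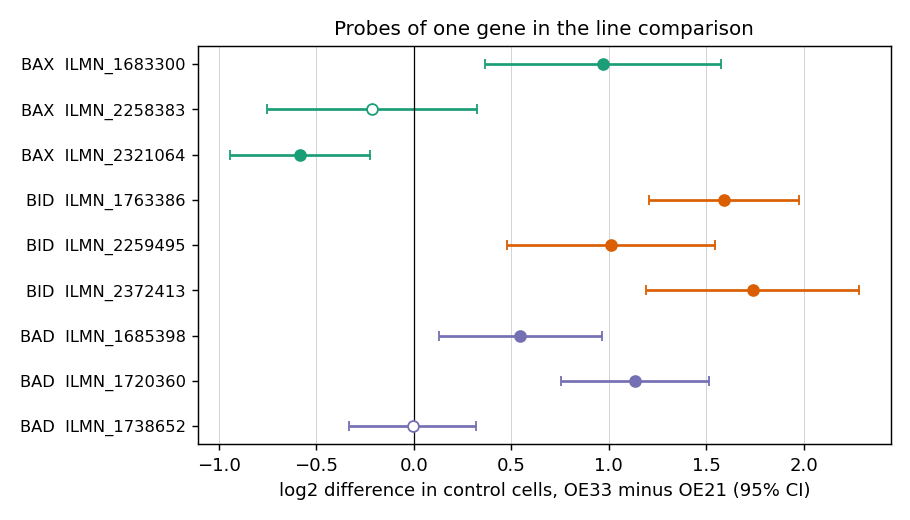
Log2 difference of OE33 minus OE21 in control cells (horizontal axis) for each tested probe of BAX (green), BID (orange) and BAD (purple). Bars are 95% confidence intervals, with filled points for adjusted p under 0.05 over all probes tested. BAX probes lie on both sides of 0, the 3 BID probes all lie right of 0, and the BAD probe that stands for the gene lies at -0.01 while the other BAD probes lie at 0.55 and 1.14.

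BAK1, the effector that sits in the mitochondrial membrane of living cells, did not differ between the control cells beyond their spread, at 6.48, 6.63 and 6.82 in OE21 and 6.20, 7.01 and 6.31 in OE33 (log2 difference -0.14, 95% confidence interval -0.72 to 0.45). On the STAT3 siRNA arrays it read 7.27, 7.22 and 6.97 in OE21 and 5.68, 6.70 and 5.97 in OE33. These groups did not overlap, and BAK1 was called lower in OE33 by -1.03 (SE 0.27, limma adjusted p = 0.00674). BOK, a BAX-like protein that is held low by rapid degradation, was much higher in OE33. It read 6.44, 6.14 and 6.57 in OE21 control cells and 8.18, 9.003 and 8.53 in OE33 control cells, a 4.56-fold difference (95% confidence interval 3.22 to 6.45, limma adjusted p = 9.25e-06). On the siRNA arrays BOK was 3.19-fold higher in OE33 (2.26 to 4.52, limma adjusted p = 7.71e-05). With the authors' normalised values, not background-corrected here, the log2 differences of BOK were 1.41 and 1.10 in place of 2.19 and 1.68, and that of BAK1 on the siRNA arrays was -0.52.

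BID links death receptors to mitochondria, since caspase-8 cleaves it into its active form. BID lay at 8.53, 9.14 and 8.75 in OE21 control cells and at 10.43, 10.19 and 10.58 in OE33 control cells. The 3.01-fold difference (95% confidence interval 2.32 to 3.91, limma adjusted p = 1.24e-05) was nearly the same on the siRNA arrays, at 2.96-fold (2.28 to 3.85, limma adjusted p = 1.28e-05). Its probe ILMN_2372413 gave log2 differences of 1.74 and 1.66 for these contrasts. ILMN_2259495 gave 1.01 and 0.83, and in control cells it was detected on 0 OE21 arrays. Its fold there was 2.02 (95% confidence interval 1.39 to 2.91), read against OE21 signal not told from background. All 3 BID probes were thus called in the same direction in both contrasts.

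BIK, a BH3-only protein of the endoplasmic reticulum, showed the largest line difference in control cells among the 10. It read 8.10, 8.50 and 7.89 in OE21 control cells and 10.47, 10.70 and 10.48 in OE33 control cells. OE33 was 5.21-fold higher (95% confidence interval 4.07 to 6.68, limma adjusted p = 2.21e-07), and 4.10-fold higher on the siRNA arrays (3.20 to 5.25, limma adjusted p = 8.38e-07). The order of the BIK group means was OE21 control, OE21 siRNA, OE33 control and OE33 siRNA, and neighbours within a line did not differ beyond their spread. BOK and BID followed the same split between the lines, with group means within a line not called different.

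BBC3, a p53 target that binds every pro-survival member, differed less. It lay at 6.68, 6.34 and 6.31 in OE21 control cells and at 6.97, 7.32 and 6.91 in OE33 control cells, a 1.54-fold difference (95% confidence interval 1.22 to 1.95, limma adjusted p = 0.00534). The siRNA arrays gave 1.71-fold (1.35 to 2.16, limma adjusted p = 0.0013). With the authors' normalised values the log2 differences were 0.33 and 0.41 in place of 0.63 and 0.77.

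PMAIP1, a p53 and stress target that neutralises MCL1, read 8.06, 8.09 and 8.48 in OE21 control cells and 7.38, 8.85 and 7.27 in OE33 control cells. OE33 control 2 was the highest of all 12 arrays but 1, and the lines overlapped (log2 difference -0.38, SE 0.36, limma adjusted p = 0.416). Without OE33 control 2 the difference was -0.89 (limma adjusted p = 0.00955). On the siRNA arrays, at 8.45, 8.50 and 9.08 in OE21 and 7.40, 7.98 and 7.68 in OE33, PMAIP1 was called lower in OE33 by -0.99 (SE 0.36, limma adjusted p = 0.0372). That call was lost without any of 5 of the 6 arrays compared, at adjusted p between 0.0510 and 0.119. The dimmer PMAIP1 probe, ILMN_1689525, gave -0.47 (SE 0.31) there and was not called.

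BAD is a BH3-only protein that is inactive while phosphorylated. By the probe that stands for each gene it was the steadiest of the 10, with a range of 0.43 log2 units over 12 arrays. Its other probes, ILMN_1685398 and ILMN_1720360, ranged over 1.33 and 1.71. The brightest BAD probe differed by -0.01 between the control cells (95% confidence interval -0.32 to 0.31). The other BAD probes were called higher in OE33, by 0.55 for ILMN_1685398 (SE 0.19) and by at least 2.04-fold on group means for ILMN_1720360. The 95% confidence interval of the fold of ILMN_1720360 ran from 1.69 to 2.86. That probe was detected on 0 of 6 OE21 arrays and on 6 of 6 OE33 arrays. BCL2L11, a strong activator of BAX and BAK1, lay between 5.06 and 6.13 on all 12 arrays. It was called in neither line contrast, with log2 differences of -0.16 (95% confidence interval -0.69 to 0.37) in control cells and 0.25 (-0.28 to 0.78) on the siRNA arrays.

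BMF, a BH3-only protein bound to the actin and myosin cytoskeleton, was read by ILMN_2308338 at 6.76, 5.58 and 5.48 in OE21 control cells and 4.31, 4.99 and 5.45 in OE33 control cells. The lines did not overlap but the difference was not called (-1.02, SE 0.47, limma adjusted p = 0.0898). After the STAT3 siRNA BMF was detected on 0 of 3 OE33 arrays. On group means of the background-corrected scale OE21 was at least 4.71-fold higher there (limma adjusted p = 0.00137). The 95% confidence interval of the log2 difference ran from -3.34 to -1.30, so a smaller difference is inside it. The OE21 siRNA arrays read 7.04, 7.64 and 5.71, and the OE33 siRNA arrays lay between 4.44 and 4.50. The log2 difference depended on the background correction, at -2.32 with it and -0.94 with the authors' normalised values. The second detected BMF probe, ILMN_1695354, was detected on 0 of 6 OE33 arrays and on 5 of 6 OE21 arrays. The line groups of BMF, counted with the other members, were among the 6 of 10 that did not overlap in control cells and the 9 of 10 that did not on the siRNA arrays. The same was true of 55.3% and 61.5% of all genes.

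Within OE21 BMF followed a split of the arrays that crosses the siRNA label. Control 1, siRNA 1 and siRNA 2 read 6.76, 7.04 and 7.64, and control 2, control 3 and siRNA 3 read 5.58, 5.48 and 5.71. ILMN_1695354 gave 6.90, 7.19 and 7.52 against 4.87, 5.51 and 4.76, so both probes showed the same split. These sets of arrays also lie apart on the first principal component of the OE21 arrays, at -0.34, -0.36 and -0.51 against 0.37, 0.42 and 0.42, and the part of this split in the BMF values was not tested. After subtracting each line's mean, the genes whose values over the 12 arrays were most like BMF were TMEM45A (Pearson r = 0.96), CD200R1 (0.94) and MAN1B1 (0.94). By the same measure the nearest genes to PMAIP1 were TGFBR2 (0.96), MITF (0.96) and FEM1C (0.95), and those to BAK1 were VPS26A (0.92), ARID3A (0.91) and ZNF699 (0.90). These 3 members had the widest ranges within a line, the arrays share the split described, and the correlations describe these arrays only.

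**Figure D4:**
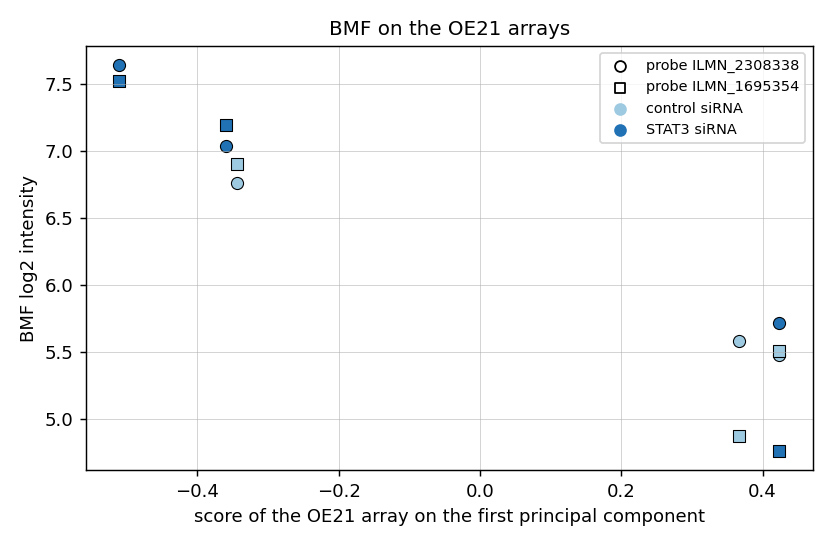
BMF log2 intensity (vertical axis) on the 6 OE21 arrays against each array's score on the first principal component (horizontal axis), for both detected probes. Circles are ILMN_2308338 and squares ILMN_1695354, light for control siRNA and dark for STAT3 siRNA. Control 1, siRNA 1 and siRNA 2 lie at the upper left, between 6.76 and 7.64, and the other 3 arrays at the lower right, between 4.76 and 5.71.

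The siRNA comparison asked, separately in each line, whether these genes differ between STAT3 siRNA and control siRNA. In OE21 0 of 10 members were called, as were 0% of the 11179 genes tested by limma. At an unadjusted p under 0.05 there was 1 member, against 11.3% of all genes. The median log2 difference of the members was 0.26, with 8 of 10 above 0, beside -0.00 and 49.5% over all genes. The member was BAK1, which read 6.48, 6.63 and 6.82 in control cells and 7.27, 7.22 and 6.97 after the siRNA. Its log2 difference was 0.51 (SE 0.15, 95% confidence interval 0.15 to 0.87), with limma adjusted p = 0.327. It was also the only 1 of the 10 whose groups did not overlap, where 16.9% of all genes did not.

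The other effectors gave -0.14 (BAX, SE 0.15) and 0.36 (BOK, SE 0.22) in OE21. Among the BH3-only genes PMAIP1 gave 0.47 (SE 0.22), BIK 0.35 (SE 0.18), BAD 0.17 (SE 0.14), BID 0.09 (SE 0.19) and BCL2L11 -0.21 (SE 0.22), all with overlapping groups. Other tested probes of these genes gave 0.04 for PMAIP1 (SE 0.33), -0.22 for BAD (SE 0.18) and 0.12 for BID (SE 0.28). BMF gave 0.85 with an SE of 0.55, and its interval ran from -0.45 to 2.16. For BBC3 the value was 0.00, and the 95% confidence interval of the fold ran from 0.78 to 1.28. A change of BBC3 beyond these bounds is outside the interval, while for BMF a change up to 4.48-fold is inside it.

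**Figure D5:**
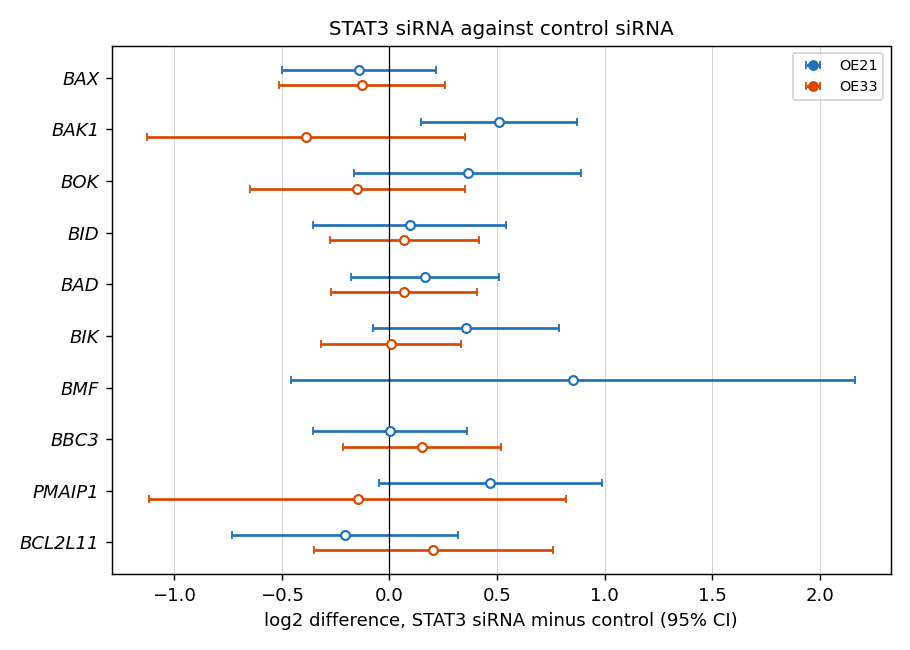
Log2 difference of STAT3 siRNA minus control siRNA (horizontal axis) for the 10 genes in OE21 (blue) and OE33 (orange), with 95% confidence intervals of the limma fits. Open points mark adjusted p of 0.05 or more, which holds for all values shown. The OE21 interval of BAK1 lies right of 0, and BMF was not tested in OE33.

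In OE33 0 of 9 members tested were called, and 0% of 10634 genes. BMF, detected on 2 of 6 arrays, was not tested. At an unadjusted p under 0.05 there were 0 members, against 2.75% of all genes, and 0 members had groups without overlap, against 7.72%. The median log2 difference was 0.01, with 5 of 9 above 0, beside -0.01 and 48% over all genes. The narrowest interval belonged to BIK, at 10.47, 10.70 and 10.48 against 10.44, 10.60 and 10.64, whose fold ran from 0.80 to 1.26. PMAIP1 had the widest, from 0.46 to 1.77, and its value of -0.15 was 0.36 without control 2. BAK1 gave -0.39 (SE 0.32), and the 6 others lay between -0.15 and 0.20.

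The difference between the effects of the siRNA in OE33 and OE21 was fitted over all 12 arrays. Of the 10 members 0 were called, as were 0% of 12322 genes, and 1 member had an unadjusted p under 0.05, against 6.73% of all genes. That member was again BAK1, with an effect lower in OE33 by -0.90 (SE 0.38, limma adjusted p = 0.724). PMAIP1 gave -0.62 (SE 0.51) and BOK -0.51 (SE 0.32), and for BMF, with 0 of 3 OE33 siRNA arrays detected, no difference is given. The dimmer PMAIP1 probe gave 0.02 (SE 0.43). The values of BAX (0.01) and BID (-0.02) were the nearest to 0.

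Transcription factors known to act on family members, among them MYC and the FOXO factors whose motifs are marked in the promoter lines, were set beside them. In control cells 4 of 7 tested were called higher in OE33 and 0 lower, where 25% and 24.2% of all genes were, with a median log2 difference of 0.69 beside 0.01 over all genes. They were FOXO3 (1.48, SE 0.19), FOXO1 (1.32, SE 0.35), MYC (0.81, SE 0.23) and E2F1 (0.56, SE 0.22). On the siRNA arrays FOXO3, MYC and E2F1 were called higher again, FOXO1 was not (0.86, limma adjusted p = 0.0571), and STAT3, the target of the siRNA, made up the 4 called. FOXO factors are known to induce BCL2L11, which was called in neither line contrast, and a link between these levels was not tested. FOXO3 probes lay between -0.09 and 1.58. After the siRNA 0 of 7 were called in either line, with E2F1 at -0.54 (SE 0.21) and FOXO3 at 0.33 in OE21.

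The pro-survival members, which bind and hold the effectors, moved in both directions between the lines. In control cells 1 of 5 tested was called higher in OE33 and 2 lower, a total near the 49.2% called among all genes. BCL2L1, which encodes BCL-XL, was higher by 1.86 (SE 0.24, limma adjusted p = 4.68e-05), and both of its probes were called. BCL2 was lower by -0.77 (SE 0.28, limma adjusted p = 0.0382) and BCL2L2 (BCL-W) by -0.48 (SE 0.16, limma adjusted p = 0.0233). The siRNA arrays gave the same calls, at 1.71, -0.84 and -0.77. The BCL2 probe was detected on 1 of 3 OE33 arrays in each group, and its line groups overlapped in control cells. Both tested BCL2 probes were called lower in control cells, while on the siRNA arrays the other probe was not called (-0.03). MCL1, a short-lived protein and textbook STAT3 target, was not called for its brightest probe (-0.37), but its other probe was called lower, at -1.14. After the STAT3 siRNA 0 pro-survival genes were called, with BCL2L2 at 0.38 (SE 0.12, limma adjusted p = 0.351) in OE21 and MCL1 at -0.31 in OE33.

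Other family and BH3-like genes held the largest line difference of all the lists. BNIP3, a mitophagy receptor induced by hypoxia, read 10.96, 10.03 and 10.46 in OE21 control cells and was detected on 0 of 6 OE33 arrays. On group means OE21 was at least 63.6-fold higher (limma adjusted p = 1.39e-09), and at least 88.6-fold on the siRNA arrays. BCL2L15 went the other way and on group means was at least 10.4-fold higher in OE33 (limma adjusted p = 1.32e-08). BCL2L12 was lower in OE33 control cells by -0.69 (SE 0.20) but was not called on the siRNA arrays (-0.35, limma adjusted p = 0.156). The 3 other genes tested did not pass in control cells but were called on the siRNA arrays. There 2 of 6 genes of this list were called higher in OE33 and 3 lower, against 25.6% and 25.2% of all genes. After the siRNA MOAP1, a partner of BAX, stood at 0.66 in OE21 and -0.28 in OE33. The difference of these effects was -0.94 (limma adjusted p = 0.596).

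Of the death receptor pathway that ends in BID, 4 of 7 tested genes were called higher in OE33 control cells and 2 lower, against 25% and 24.2% of all genes. The median log2 difference was 0.82. The receptors TNFRSF10B (1.29, SE 0.18), TNFRSF10A (1.23, SE 0.33) and FAS (0.82, SE 0.29) were higher in OE33, as was CFLAR, the inhibitor of caspase-8 (2.46, SE 0.22). The adaptor FADD was lower by -2.44 (SE 0.21), and the ligand TNFSF10 (TRAIL) by -3.68 (SE 0.49). In OE21 TNFSF10 gave 1.32 after the siRNA with limma adjusted p = 0.489, and TNFRSF10B gave 0.51. TNFSF10 read 10.20, 8.98 and 8.79 on the OE21 control arrays and 11.26, 11.38 and 9.29 after the siRNA, with overlapping groups. Control 1, siRNA 1 and siRNA 2 were thus highest, the same split as for BMF, and its part in the TNFSF10 values was not tested. CASP8, the protease that cleaves BID, was called in neither line contrast (0.35 and 0.62).

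Downstream of the pores, 3 of 9 tested genes of mitochondrial release and the apoptosome were called higher in OE33 control cells and 2 lower, close to the 49.2% called among all genes. CASP9, the initiator caspase of the apoptosome, was higher by 1.55 (SE 0.16), the protease HTRA2 by 0.98 (SE 0.15) and the channel VDAC3 by 0.39 (SE 0.13). The nuclease ENDOG was lower by -2.07 (SE 0.14) and VDAC1 by -0.57 (SE 0.12). On the siRNA arrays CASP9, HTRA2, VDAC3 and ENDOG were called in the same directions and APAF1, the core of the apoptosome, was called higher (0.50), while VDAC1 was not called (-0.25, limma adjusted p = 0.103). In control cells 1 of 2 probes was called for CASP9 and for HTRA2, and on the siRNA arrays 1 of 2 for CASP9 and 2 of 2 for HTRA2. After the STAT3 siRNA 0 of these 9 genes were called in either line, with VDAC3 at -0.33 and CYCS, cytochrome c, at -0.42 in OE21.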

How the data were processed

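Per the file headers, the deposited probe intensity of the 12 arrays is linear and not normalised between arrays, and each intensity has a deposited detection p-value. Per the labels' protocols, RNA was column-extracted and labelled as biotinylated cRNA. For the making of detection p-values the sources used here give no method. By contrast with these raw values, the authors' own normalised intensity values, whose method is likewise unstated, are linear and uncentred (medians 106.40 to 107.16) and ranked probes nearly as their own arrays did (lowest Spearman correlation 0.999958).

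Of 47323 probes, 4 with missing values were left out. By the platform annotation 30111 probes had 1 symbol, 8 several and 17200 none. The limma package (3.58.1, R 4.3.3) did the rest: neqc with offset 16 for background and quantile normalisation, then lmFit and eBayes, two-sided, adjusted by Benjamini and Hochberg over all genes tested, or over all probes where a probe is named. The brightest tested probe stood for its gene. The siRNA comparisons used 6 arrays each (4 residual degrees of freedom), the others all 12 (8). Where no array of a group detected a probe, folds written as at least N-fold were taken from group means. Undetected arrays entered with the larger of the probe's own signal and the lowest detected signal of that array. Such a fold holds no sampling error and can lie above the lower limit of the confidence interval. An exact permutation test of 3 against 3 cannot reach p below 0.1, and precision is limited by the small number of arrays.

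All 10 members are named, with up to 4 genes per list and comparison by smallest p, and the genes most like the 3 members of widest range. VDAC3, MCL1, FAS, TNFRSF10A, APAF1, HRK, DYNLL1 and DYNLL2 are also given where they fall outside that rule, a choice made after their values were seen. Of 62 genes in 8 lists, 50 were tested between the lines. Members and lists were chosen with earlier results of these data known. The fit was tested on simulated data. Alternatives were no background correction, the authors' values, other filters on dim probes, array weights, a replicate block, other handling of probes, other arrays in the fit and leaving out each array.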

Additional observations from a re-analysis of the deposited data

How the results depend on the processing

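Of the values of members called in the main line contrasts, 74 of 75 in control cells and 112 of 120 on the siRNA arrays kept direction and side of the threshold. The exceptions were BAX with probes averaged (0.057 in control cells, 0.14 on the siRNA arrays) and PMAIP1 on the siRNA arrays, which was lost without a filter on dim probes (adjusted p = 0.0587), with probes averaged (0.0584) and when any 1 of 5 of the 6 arrays was left out. Averaging probes also gave BAD 0.56 and 0.62 between the lines, both called, BCL2L11 0.10 in control cells, and BAD -0.025 for the siRNA effect in OE21 and 0.064 for its difference between lines. Members called numbered 5 to 6 in control cells and 7 to 8 on the siRNA arrays in every alternative, and 0 for the siRNA effects and their difference. The authors' normalised values kept every call of BOK, BBC3, BAK1 and BMF between the lines but lowered their size, as given above. With array weights PMAIP1 was called in control cells (-0.89, adjusted p = 0.00496).

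Counts of all genes called that moved were 270 with array weights and 12 in a fit of 12 arrays for OE21. For the difference of effects the count was 229 with array weights. Tested by single probes, 1 probe was called for OE21 and 9528 between the lines on the siRNA arrays. The single-probe counts are of probes, with or without a symbol, and not of genes. Array weights turned BID to -0.067 in OE21 and -0.066 in OE33, BAX to 0.046 and PMAIP1 to 0.36 in OE33, the differences of BID, BAD and PMAIP1 to 0.022, 0.11 and 0.082, and BAD between lines on the siRNA arrays to 0.025. Without background correction BBC3 in OE21 was -0.00013. Leaving out single arrays turned uncalled values. In OE21 the ranges were -0.062 to 0.12 (BBC3), -0.38 to 0.018 (BCL2L11) and -0.044 to 0.26 (BID). In OE33 they were -0.0017 to 0.15 (BAD), -0.24 to 0.016 (BAX), -0.020 to 0.44 (BCL2L11), -0.033 to 0.16 (BID), -0.033 to 0.082 (BIK), -0.34 to 0.068 (BOK) and -0.43 to 0.36 (PMAIP1). For the difference of effects they were -0.095 to 0.16 (BAX) and -0.19 to 0.11 (BID), and in control cells -0.083 to 0.054 (BAD), -0.39 to 0.017 (BAK1) and -0.40 to 0.062 (BCL2L11). The cause of these shifts was not tested.

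Same-numbered control and siRNA arrays correlated at 0.33, -0.30 and 0.39 in OE21 and at 0.06, 0.22 and 0.08 in OE33 (deviations from group means). The signs were mixed in OE21 and all positive in OE33. So few values, from such small groups, cannot decide whether the numbers pair the arrays. With the replicate number as a block, 5 and 8 members were called between the lines (6087 and 6289 genes), 0 members and 0 genes elsewhere, and no member's call changed. BMF and the dim probes of BAX, BID, BAD and BCL2L11 lie near background, where signal limits what can be read.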

Other observations

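Further genes around the family were read from the same lists. Among binding partners, which hold BAD, BMF or BCL2L11 away from their targets, 1 of 9 tested was called higher in OE33 control cells and 2 lower, where 25% and 24.2% of all genes were. SFN, the epithelial 14-3-3 protein known to hold BAX, was lower by -2.32 (SE 0.32, limma adjusted p = 8.49e-05), and the 14-3-3 protein YWHAZ by -0.84 (SE 0.17). Of 2 tested YWHAZ probes 1 was called, and the other gave -0.09 in control cells and 0.35 on the siRNA arrays. YWHAH was higher by 1.12 (SE 0.24). DYNLL1 and DYNLL2, dynein light chains that bind BCL2L11 and BMF, were not called in either line contrast, and DYNLL2 stood at -0.49 after the siRNA in OE21 (limma adjusted p = 0.525).

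The same background shares apply to the lists that follow. Of 3 other caspases tested, the executioner CASP6 was called higher in OE33 (1.04, SE 0.19 in control cells, and 1.13 on the siRNA arrays), while CASP2 and CASP8 were not called. Of 4 inhibitors of apoptosis tested, XIAP was lower in OE33 by -0.52 (SE 0.19, limma adjusted p = 0.0405) and BIRC2 higher by 0.40 (SE 0.14, limma adjusted p = 0.0336) in control cells. Of 2 tested BIRC2 probes 1 was called there, and the other gave 0.05. On the siRNA arrays XIAP was called lower again (-0.70) and BIRC2 was not called (0.09). After the STAT3 siRNA 0 genes of these 3 lists were called in either line, with BIRC2 at 0.36 and BIRC5, a mitotic protein and textbook STAT3 target, at -0.32 in OE21.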
